A study of Mus musculus with 183 samples.

Results

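The mRNAs described here encode the machinery that makes microRNAs and carries out silencing with them. The members were a list of named genes, chosen by function and not by any measured value: Drosha and Dgcr8, Xpo5, Dicer1, the Argonaute genes Ago1, Ago2 and Ago3, and the GW182 genes Tnrc6a, Tnrc6b and Tnrc6c. Earlier results of these data were known when the list was chosen. All 10 were found among the 53380 genes of the count table, all 10 passed the filter on low counts in every comparison, and all 10 were among the 7240 mRNAs of the binding table. Mouse embryonic stem cells (mESCs) of mixed 129 and C57BL/6 origin, grown on gelatin in serum and LIF, were profiled by RNA-seq as 47 libraries. Clone 5F (Rosa26Cre-ERT2/- Skiv2l fl/fl) carries loxP sites in Skiv2l, the helicase of the cytoplasmic Ski complex, and a tamoxifen-activated Cre expressed from Rosa26. Clone 7E (Rosa26Cre-ERT2/BirA-V6, Skiv2l 3xFLAG-Avi/3xFLAG-Avi, Aven-/-) lacks Aven, which encodes a Ski complex partner, and also carries a tagged Skiv2l and a BirA biotin ligase. A conditional Skiv2l allele is named in the labels of other samples of clone 7E, but not in those of these libraries. Each line is 1 clone, and 7E had less Skiv2l mRNA than 5F before 4OHT (values below). Aven loss, the tag, BirA, the lower Skiv2l level and clonal history therefore cannot be told apart. Each clone was taken without 4-hydroxytamoxifen (4OHT, day 0) and after 4 days of 0.1 µM 4OHT (day 4), and then treated with actinomycin D, which blocks transcription, for 120, 240 or 360 min or with DMSO for 6 h (mock, time 0). Groups held 3 libraries, except 2 for 5F at day 0 and 120 min. The binding table comes from other mESC lines, which express BirA and carry a FLAG-Avi tag on endogenous Skiv2l, Xrn1, Mtr4 or Aven. The study describes replicates as technical, so p-values measure the spread between these libraries.

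MicroRNAs are cut from long nuclear transcripts by the Microprocessor, in which DROSHA is the nuclease and DGCR8 its RNA-binding partner. Exportin-5, the product of Xpo5, carries the hairpins to the cytoplasm, where DICER1 trims them to duplexes. An Argonaute protein keeps one strand, and a GW182 protein bound to it recruits deadenylases to the target mRNA. In mESCs the pathway is needed for timely exit from self-renewal, while the stem cell state itself persists without DGCR8 or DICER1.

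Total gene counts were 24440935 to 34114250 per library, and counts of single members ranged from 391 (Ago3) to 10024 (Drosha). All 7 stem cell markers were expressed in every mock group, with a summed level of 2507 to 3152 CPM (counts scaled to a common library total), whereas the 4 fibroblast markers summed to 1.94 to 8.45 CPM, with 1 or 2 of them above 1 CPM in each group and Postn at or below 0.0222 CPM. The stem cell sum was 2792 to 2878 CPM in 5F at day 0 and 2582 to 2730 in libraries labelled day 4. In 7E it was 3010 to 3152 CPM at day 0 and 2507 to 2607 at day 4. Aven fell from 35.6 CPM ± 0.481 (SD, n = 3) in 5F at day 0 to 2.32 ± 0.582 in 7E. Skiv2l did not follow the labels of clone 5F: it was at 148 CPM ± 0.290 (SD, n = 3) at day 0 and at 143 ± 10.4 in the libraries labelled day 4, while in 7E it was at 33.6 ± 2.46 and fell to 13.1 ± 0.703. Reads outside the loxP-flanked exons were not separated from those inside. For 5F the text below therefore speaks of libraries labelled day 4, and no direction is tied to Skiv2l loss there. The ratio of gene counts to ERCC spike-ins was 312 to 363 in the mock libraries of the other 3 groups but 151 to 156 in those of 7E at day 4. All levels are shares of the RNA sampled, and in bulk samples fewer cells of a type and less RNA per cell cannot be told apart.

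Dgcr8 and Tnrc6b carry microRNA hairpins within their mature mRNA. Dgcr8 lies on the minus strand of chromosome 16 (GRCm38, chr16:18253948-18289246), and its exon 2 contains the hairpins of miR-1306 (chr16:18284239-18284317), within the coding sequence, and of miR-3618, within the 5′ UTR. Cleavage of hairpins in this mRNA by the Microprocessor is a known feedback on DGCR8. The miR-1306 hairpin and the mature forms of both microRNAs are shown because they mark where the Dgcr8 mRNA is itself a substrate of the pathway. They are from RefSeq (GRCm38.p6), 5′ to 3′, and capitals mark the seed, bases 2 to 8 of the mature form.
mir-1306 hairpin: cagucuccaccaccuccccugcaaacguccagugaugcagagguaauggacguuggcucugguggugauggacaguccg
mmu-miR-1306-5p: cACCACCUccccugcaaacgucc
mmu-miR-1306-3p: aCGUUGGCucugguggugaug
mmu-miR-3618-5p: uGUGAUUUccaauaauugaggc
mmu-miR-3618-3p: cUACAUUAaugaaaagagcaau
None of these 4 mature forms shared a seed. The entries for both hairpins held 0 counts in all 47 libraries, which were not prepared for small RNAs and in which reads shared with Dgcr8 have no place of their own. Dgcr8 overlaps Trmt2a, and Ago2 overlaps Chrac1, both on the opposite strand. The kit does not mark strand, so reads in the overlaps cannot be told apart and both members' counts are uncertain to that extent.

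The other members lie on 6 chromosomes. Drosha (chr15:12824815-12935291, plus strand), Ago2 (chr15:73095844-73184935, minus) and Tnrc6b (chr15:80711313-80941085, plus) share chromosome 15. Ago3 (chr4:126331704-126429556) and Ago1 (chr4:126435012-126468583) are neighbours on the minus strand of chromosome 4. Xpo5 is at chr17:46202782-46243598 (plus), Dicer1 at chr12:104687742-104751952 (minus), Tnrc6a at chr7:123123885-123195296 (plus) and Tnrc6c at chr11:117654289-117763439 (plus). Xpo5 carries miR-693 in an intron and Tnrc6b carries miR-5113 in its 3′ UTR. The 3′ UTRs span 168 nt (Drosha) to 12742 nt (Ago3), and those of Ago2 (11064 nt), Tnrc6b (11609 nt) and Ago3 make up most of their transcripts.

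Levels of different members were compared per length, as RPKM (reads scaled to the length of annotated exon and the library total). In mock libraries of 5F at day 0, the 2 genes that act at nuclear cleavage and export stood at the top. Drosha had 41.3, 40.5 and 42.1 RPKM in the 3 libraries, and Xpo5 had 37.5, 37.2 and 36.1. These were the 88.1 and 86.5 percentiles among genes with a mean of at least 100 counts. Dgcr8, the partner of DROSHA, followed at 18.4 RPKM ± 0.722 (SD, n = 3). Ago2 (12.0 ± 0.659), Ago1 (11.2 ± 0.375), Dicer1 (10.6 ± 0.134) and Tnrc6a (9.95 ± 0.124) lay close together, and although their library ranges did not overlap in this group, neighbours differed by at most 1.07-fold. Tnrc6c had 5.87 RPKM ± 0.204, Tnrc6b 2.57 ± 0.157, and Ago3 was lowest at 1.49 ± 0.0378, the 10.7 percentile. The median gene had 7.89 RPKM.

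Across the 4 mock groups the lower end of the order did not move. Tnrc6c, Tnrc6b and Ago3 took the last 3 places in every group, and their ranges did not overlap. This order rests on the length of annotated exon. With the length of the longest transcript instead, 9 of the 10 values in 5F at day 0 moved by more than their SD. In the deposited RPKM values of the tagged lines Tnrc6c (13.13) stood above Ago2 (11.15) and Ago1 (10.06). Tnrc6b (4.95) and Ago3 (1.95) were last there too. The top pair changed order: Drosha and Xpo5 overlapped in 5F libraries labelled day 4, and Xpo5 was above Drosha in both 7E groups. In 7E at day 0 Dicer1 rose to the fourth place with 13.8 RPKM ± 0.223 (SD, n = 3), and Tnrc6a and Ago2 overlapped. In 7E at day 4 Ago1 had dropped below Tnrc6a, to 7.89 RPKM ± 0.218.

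**Figure D1:**
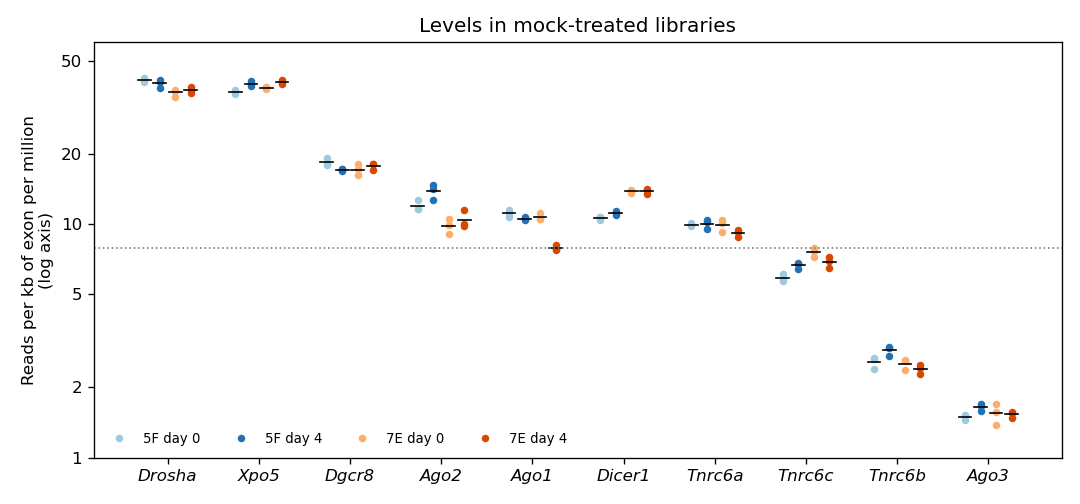
RPKM (log axis) of the 10 mRNAs in mock-treated libraries, ordered by their mean in 5F at day 0; points are libraries, black lines group means of 3 libraries, and the dotted line the median gene in 5F at day 0 (7.89). Drosha and Xpo5 were highest and Ago3 lowest in every group, and Ago1 in 7E at day 4 lay below its other groups.

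The members differed widely in how long they outlasted the block of transcription. Counts were divided by a size factor and scaled with 1 spike-in factor per time point, which makes values at different times comparable. Tnrc6a, which encodes a GW182 scaffold, was lost fastest. In 5F at day 0 its normalized counts were 3553, 3593 and 3552 in mock, 790 and 864 at 120 min, 517, 423 and 549 at 240 min, and 307, 317 and 287 at 360 min. No library after the block overlapped with the mock libraries or with another time point. The share of the mock level left after 120 min was 23.2% ± 1.47 (SD, n = 2), against 60.9% for the median gene, and after 360 min it was 8.51% ± 0.428 (SD, n = 3), against 41.7%. In the other 3 groups of clone and day, 19.9% to 24.8% were left at 120 min.

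Drosha was at the other end. Its normalized counts in 5F at day 0 were 6894, 6748 and 7098 in mock, 5343 and 5222 at 120 min, 4310, 3266 and 4468 at 240 min, and 3968, 4026 and 3953 at 360 min. The libraries at 240 and 360 min overlapped, with the second library at 240 min below all others. After 360 min 57.6% ± 0.557 (SD, n = 3) of the mock level was left, and the other groups had 51.6% to 59.3%. Its transcript has a 3′ UTR of 168 nt, the shortest of the 10, but across the members 3′ UTR length and half-life in 5F at day 0 were not ordered alike (Spearman's rho = -0.19, n = 10, a description over genes that share libraries).

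A single half-life was fitted by least squares to the logarithm of the normalized count plus a pseudocount of 1 over all times. Tnrc6a had 1.72 h ± 0.159 (SE, 11 libraries) in 5F at day 0 and up to 1.98 h in the other groups, and 5.49% to 6.19% of genes were shorter. The other GW182 genes followed more slowly, with Tnrc6c at 3.54 h ± 0.365 and Tnrc6b at 4.09 h ± 0.601 in 5F at day 0. Among Argonautes, Ago3 had 3.68 h ± 0.537, Ago1 3.90 h ± 0.521 and Ago2 5.50 h ± 1.30. Dgcr8 had 3.85 h ± 0.229 and was thus turned over faster than its partner Drosha, at 7.12 h ± 1.14. Xpo5 had 5.09 h ± 0.399 and Dicer1 5.93 h ± 0.547, near the median gene at 4.84 h. In each of the 4 groups of clone and day, Tnrc6a was below its next neighbour by more than 2 standard errors of the gap. Of all other neighbouring pairs, Dgcr8 and Xpo5 in 7E at day 0 alone were apart by that measure, so the order among the middle members was not resolved.

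**Figure D2:**
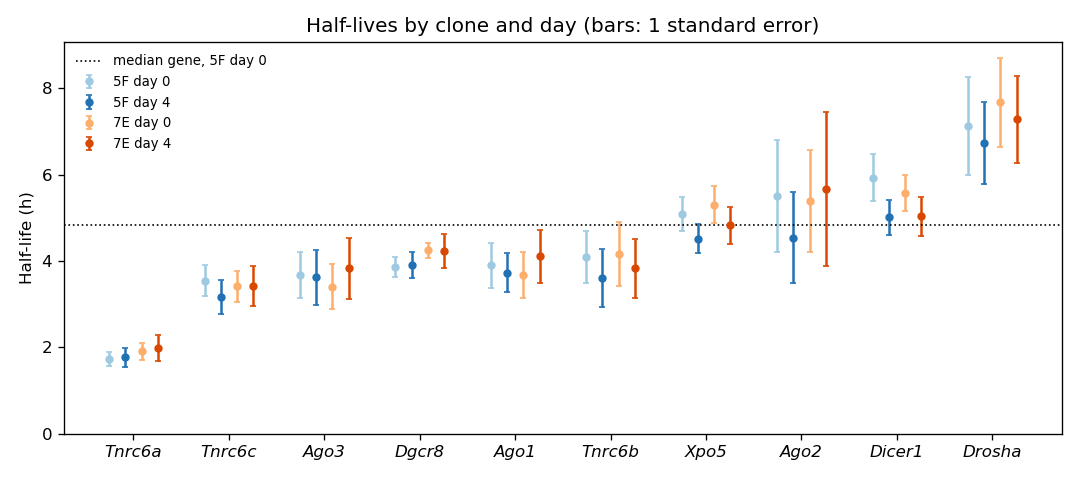
Fitted half-life in hours of each mRNA by clone and day of 4OHT; points are fits over 11 or 12 libraries, bars are 1 standard error, and the dotted line is the median gene in 5F at day 0 (4.84 h). Tnrc6a lay between 1.72 and 1.98 h and Drosha between 6.73 and 7.67 h, while the bars of most other members overlapped.

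A single half-life described some members poorly. Loss was faster in the first 120 min than later for every member and for the median gene, whose half-time in 5F at day 0 was 2.80 h up to 120 min and 7.57 h from 120 to 360 min, a ratio of 2.70. Tnrc6b had the steepest break there, with 1.81 h and then 9.34 h, a ratio of 5.17, and Ago3 had 4.59. Dicer1 had 1.86, Drosha 1.91 and Dgcr8 2.00, below the median gene's ratio. Without the mock libraries the fitted half-lives of Tnrc6b were 9.07 to 11.3 h and those of Ago3 7.69 to 11.7 h over the 4 groups, against 7.08 to 7.65 h for the median gene. Tnrc6a was still the shortest, at 2.78 to 4.56 h. Drosha, at 9.01 to 10.6 h, was then the longest in 5F at day 0 alone, and Ago2 moved to between 8.16 and 24.7 h. These fits had wide errors: Ago2 in 7E at day 4 had 24.7 h ± 48.9 (SE, 9 libraries). In 5F at day 0 (8 libraries) Drosha had 10.6 h ± 4.70, Tnrc6b 9.07 h ± 2.90 and Ago3 8.51 h ± 2.51. The order of the longer members, and the place of Tnrc6b and Ago3 against the median gene, were therefore not resolved.

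Ago2 was the member with the least even libraries. In 5F at day 0 its normalized counts at 240 min were 3301, 1566 and 2850, and in 7E at day 0 they were 2428, 1327 and 2415. The second library was lowest in both clones. Its spread between libraries after actinomycin D was 0.39 (SD of log2 counts, 23 degrees of freedom), above that of 97.8% of genes, whereas Xpo5 at 0.0268 was below nearly every gene. The second library at 240 min and day 0 held the lowest value of its group for 8 of 10 members in 5F and 9 of 10 in 7E, and the first library of 7E at day 4 and 120 min for 10 of 10. In these 3 libraries genes with longer exons had lower counts than in their group (Spearman's rho across 10593 genes = -0.33, -0.30 and -0.26). Ago2 has a 3′ UTR of 11064 nt. The part of exon length in these values was not tested.

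**Figure D3:**
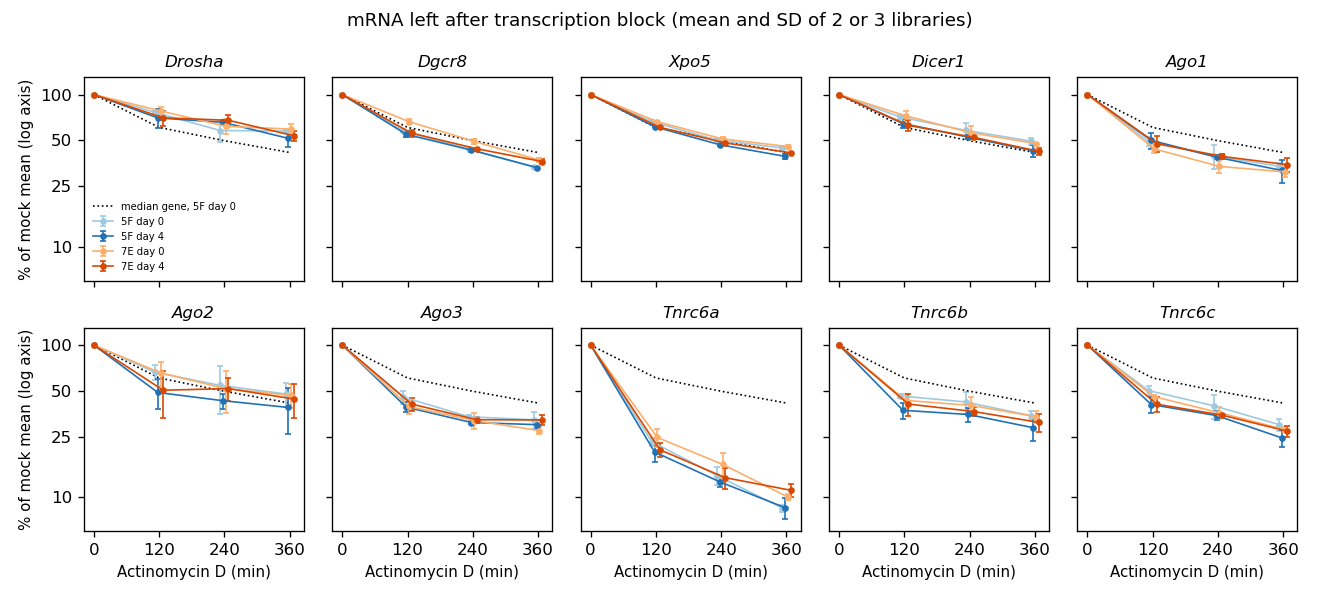
Percent of the mock mean left (log axis) against minutes in actinomycin D for each mRNA; points are means of 3 libraries (2 for 5F at day 0 and 120 min), bars SD, colours clone and day of 4OHT, and the dotted line the median gene in 5F at day 0. Tnrc6a fell to between 8.51% and 11.2% at 360 min and Drosha to between 51.6% and 59.3%, and the 4 lines of each mRNA lay close together.

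Without pairing of libraries, none of the members passed the test for a change in decay rate. The question here was whether 4OHT or the clone altered how fast each mRNA was lost, relative to the typical gene. Size factors were taken within a time point over all groups, so a shift shared by all genes is scaled out. With each library scaled by its own spike-ins, the median gene was at 0.0194 log2 units per h for 4OHT in 7E and 0.0296 for the interaction. The difference of slopes was tested with edgeR (quasi-likelihood), with p-values adjusted by Benjamini-Hochberg over all genes. Between libraries labelled day 4 and day 0 in 5F, 0 of 10 members were called, where 0.134% of 17901 genes decayed more slowly and 0.0614% faster. The estimates for members lay between -0.04 (Ago2) and 0.01 (Tnrc6a) log2 units per h, where positive means slower loss. In 7E 0 of 10 were called, where 0.408% of genes decayed more slowly and 0.488% faster, with estimates from -0.02 (Tnrc6b) to 0.03 (Ago3). Between the clones at day 0, 0 of 10 were called (0.0281% of genes slower in 7E, 0.00563% faster), with estimates from -0.03 (Ago3) to 0.05 (Tnrc6a). For the difference of the 4OHT responses between clones 0 of 10 were called, and 0% of genes passed in either direction. In all 4 comparisons 0 members had an unadjusted p under 0.05, and DESeq2 called 0 members.

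Libraries of the clones that shared day, time and replicate number deviated together, and both comparisons of decay between clones depended on that pairing. With 1 block per day, time and number, Tnrc6a was lost more slowly in 7E than in 5F at day 0, by 0.05 ± 0.01 log2 units per h (adjusted p = 0.0136). It was the 1 of 10 members called slower, where 6.34% of genes were, and 0 of 10 were faster, where 3.54% were. The fitted half-lives of Tnrc6a were 1.72 h ± 0.159 in 5F and 1.90 h ± 0.205 in 7E. For the difference of the 4OHT responses, 0 of 10 were called with the block, where 1.05% of genes were slower and 1.56% faster, although 4 members had an unadjusted p under 0.05. The library of 7E at day 0 and 120 min that has no partner adds nothing to these blocked fits.

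The width of the intervals differed by member in the fits without the block. The narrowest 95% interval for 4OHT in 5F was that of Dicer1, from -0.08 to 0.01 log2 units per h, and the widest reached 0.16, that of Tnrc6a. In 7E the interval of Dicer1 ran from -0.06 to 0.02. For the clones at day 0, Dgcr8 had the narrowest interval, from -0.01 to 0.06, and Tnrc6a was bounded at 0.18. With the block the interval of Tnrc6a in that comparison ran from 0.02 to 0.07.

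Steady-state levels were compared in the mock libraries. Between mock libraries of 5F labelled day 4 and day 0, 5 of 10 members were higher, where 12.8% of 16349 genes were called higher, and 0 of 10 were lower, where 11.6% were. By DESeq2 0 were lower too, and 0 had an unadjusted p under 0.05 in that direction. The median log2 change of the members was 0.13, against -0.00499 over all genes tested. The members called were 2 Argonautes, 2 GW182 genes and the exportin. Ago2, the Argonaute with slicer activity, had normalized counts of 4577, 5005 and 4611 at day 0 and 5136, 5753 and 5945 in libraries labelled day 4. The groups did not overlap, and the log2 change was 0.25 ± 0.05 (SE, adjusted p = 0.0020). Tnrc6c had 2119, 2192 and 2073, then 2531, 2388 and 2502, again without overlap (0.22 ± 0.05, adjusted p = 0.00243). Tnrc6b rose by 0.20 ± 0.06 (adjusted p = 0.0123), from 1780, 1762 and 1609 to 1854, 2023 and 2027. Xpo5 rose by 0.15 ± 0.04 (adjusted p = 0.0139), and Ago3 by 0.18 ± 0.06 (adjusted p = 0.0393). The call of Ago3 held in 2 of 9 alternatives and was lost with DESeq2 (adjusted p = 0.0667). Every one of the 5 changes was under 1.2-fold. Leaving out the third replicate ended all 5 calls, with 0 members called, and without the first 2 were called, Ago2 and Tnrc6b. Scaling each library by its own spike-ins moved the median gene by -0.07 on the log2 scale and left 0 of 10 called, with Ago2 at 0.18 and Tnrc6c at 0.15. By that scaling 1063 of 16349 genes were higher and 2351 lower.

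Among the members, Ago1 changed most on 4OHT in mock libraries of 7E. Its change was at the 11.2 percentile of the changes of all genes tested. Ago1, an Argonaute, had normalized counts of 2466, 2591 and 2481 at day 0 and 1874, 1860 and 1966 at day 4, with no overlap. It fell by 0.40 ± 0.05 on the log2 scale (adjusted p = 1.27e-06) (a change of -24.4%). It was the 1 member of 10 called lower, where 19.4% of 16333 genes were. Under actinomycin D the counts of Ago1 at 120 min were 1032, 1141 and 1147 at day 0 and 785, 926 and 1003 at day 4, again apart. At 240 min the ranges overlapped (873, 763 and 908 against 774, 713 and 751), and at 360 min they did not (851, 731 and 762 against 677, 713 and 584). Xpo5 was the 1 member called higher, where 20.7% of genes were, with 7678, 7482 and 7641 at day 0 and 8019, 8394 and 8283 at day 4 (0.12 ± 0.04, adjusted p = 0.0403). That call was lost with TMM factors, without the filter on low counts and when any 1 replicate was left out. The median log2 change of the members was 0.04, against -0.01 over all genes. Scaling each library by its own spike-ins moved the median gene of this comparison by -1.11 on the log2 scale. It put all 10 members lower, and 14717 of 16333 genes. Relative to that shift Ago1 was at -0.40 and Xpo5 at 0.12.

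The difference between the 4OHT responses of the clones was tested as an interaction over all 12 mock libraries. The log2 response was lower in 7E than in 5F for 2 of 10 members, where it was for 5.29% of 17209 genes, and higher for 0 of 10, where it was for 6.65%. By DESeq2 0 were higher too, and 1 member, Dgcr8 (0.16 ± 0.07), had an unadjusted p under 0.05 in that direction. Scaling by own spike-ins moved the median gene by -1.03 and put all 10 lower, and 14319 of 17209 genes. Relative to that shift Ago1 was at -0.36 and Tnrc6c at -0.32. For Ago1 the interaction was -0.36 ± 0.06 (log2, adjusted p = 0.000447). In 5F its counts were 2551, 2625 and 2487 at day 0 and 2469, 2436 and 2522 in libraries labelled day 4, and these overlapped. For Tnrc6c the interaction was -0.32 ± 0.07 (adjusted p = 0.00349). It rose in 5F, as above, while in 7E it had 2670, 2908 and 2855 at day 0 and 2622, 2472 and 2753 at day 4 (-0.10 ± 0.05, adjusted p = 0.135). Without the first replicate the call of Tnrc6c was lost (adjusted p = 0.0659). Tnrc6b had an interaction of -0.24 ± 0.08 (adjusted p = 0.0536). With the block of paired libraries 5 of 10 members were lower, where 11.7% of genes were: Ago1 and Tnrc6c again, Tnrc6b (adjusted p = 0.00079), Ago2 (-0.12 ± 0.04, adjusted p = 0.0284) and Tnrc6a (-0.12 ± 0.04, adjusted p = 0.0353). Dgcr8 was then the 1 of 10 higher (0.16 ± 0.04, adjusted p = 0.00358), where 12.4% of genes were. Total Skiv2l counts did not fall in 5F, and reads of the loxP-flanked exons were not separated. Whether the interaction sets a response to Skiv2l loss with AVEN against one without it therefore cannot be told.

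**Figure D4:**
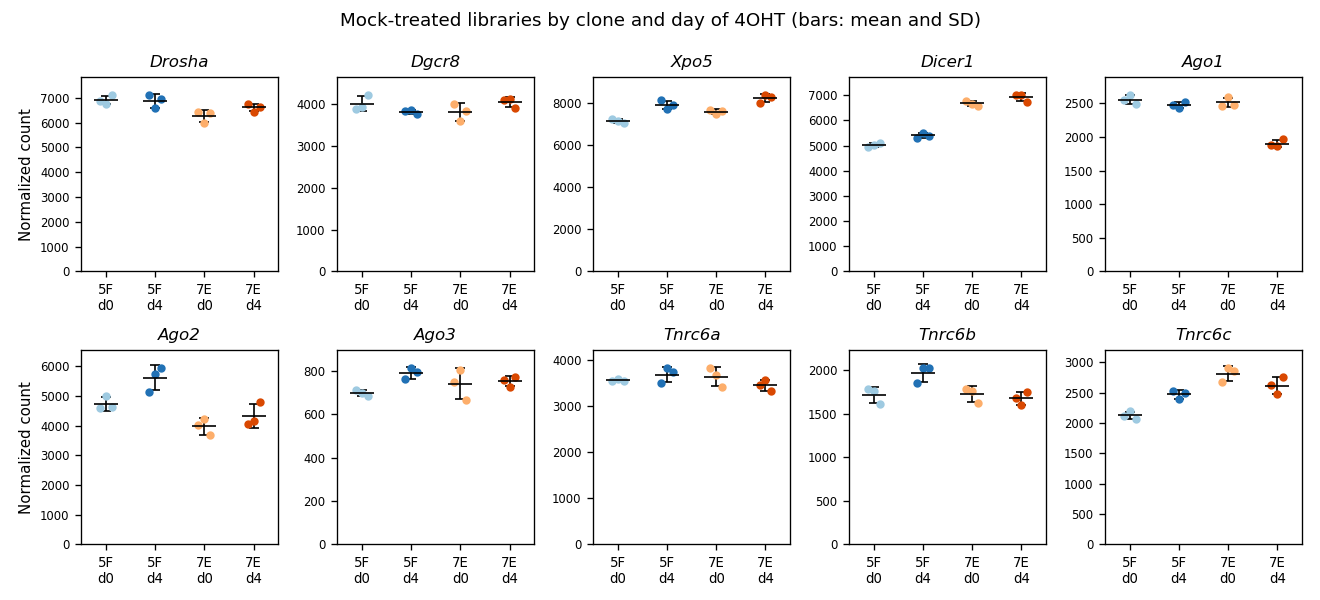
Normalized counts of each mRNA in the 12 mock-treated libraries by clone and day of 4OHT (axes start at 0); points are libraries and bars the mean and SD of 3 libraries. Ago1 in 7E at day 4 (1860 to 1966) lay below all 9 other libraries, and Dicer1 was higher in both 7E groups than in both 5F groups.

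Before any 4OHT, the clones differed in 4 of the 10 members, and in 6 with the replicate block. Skiv2l, not a member, was already lower in 7E, by 2.10 ± 0.05 (SE) on the log2 scale. Dicer1, the cytoplasmic processing enzyme, had normalized counts of 4934, 5030 and 5088 in 5F and 6779, 6660 and 6583 in 7E, a log2 difference of 0.41 ± 0.04 (adjusted p = 7.17e-09). Tnrc6c had 2119, 2192 and 2073 in 5F and 2670, 2908 and 2855 in 7E (0.40 ± 0.05, adjusted p = 1.82e-07). These were 2 of 10 members called higher in 7E, where 20.0% of 16299 genes were. Neither gene's libraries overlapped between clones, and both calls held in all 9 alternatives. They also held with own spike-ins, at 0.25 and 0.24, where the median gene moved by -0.17. Ago2 was lower in 7E, with 4014, 4227 and 3679 against 4577, 5005 and 4611 (-0.25 ± 0.05, adjusted p = 0.000211). Drosha was lower as well, with 6439, 5983 and 6391 against 6894, 6748 and 7098 (-0.14 ± 0.04, adjusted p = 0.00855), a call lost without the third replicate (adjusted p = 0.0839). So 2 of 10 members were lower, where 19.7% of genes were. With own spike-ins 4 were, where 6290 of 16299 genes were. With the replicate block Xpo5 was also higher in 7E (0.09 ± 0.02, adjusted p = 0.000299) and Dgcr8 lower (-0.08 ± 0.03, adjusted p = 0.0141), which made 3 of 10 higher and 3 lower, where 24.7% and 25.1% of genes were. The difference of Dicer1 stood at 28.0% of the 5F mean among libraries labelled day 4, where the ranges were again apart. The median log2 difference of the members was 0.02, against -0.01 over all genes. The 3 primitive endoderm markers summed to 59.8 to 62.3 CPM in 5F at day 0 and 4.79 to 6.16 CPM in 7E, and the 7 stem cell markers to 2792 to 2878 and 3010 to 3152 CPM. The 3 markers of epiblast-like or differentiating cells, mostly Otx2, summed to 42.1 to 43.2 and 65.5 to 69.9 CPM. The part of these markers and of Skiv2l in the differences was not tested.

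CRAC, in which a tagged protein is crosslinked to RNA and the bound fragments are sequenced, gave the relative binding of each mRNA to MTR4, the helicase of the nuclear exosome, to SKIV2L and to XRN1, the cytoplasmic 5′–3′ exonuclease. The 3 values of an mRNA sum to 1, so that one can be high only where another is low. They are the authors' pooled values with no replicate error and no stated depth per mRNA. SKIV2L was the low one for most members: 9 of 10 lay below the median mRNA (0.267) and 7 of 10 among the lowest 25% of the 7240. Tnrc6a had 0.0509 and Ago2 0.0546, lower than all but 1.42% and 1.67% of mRNAs. Xpo5 was the exception at 0.472, the 85.2 percentile.

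XRN1 and MTR4 divided the rest, and paralogs differed. Ago2 had an XRN1 share of 0.755, the 99.3 percentile, and Ago1 had 0.549, while Ago3 had 0.177 and the highest MTR4 share of the members, 0.714, the 95.7 percentile. Ago3 was also the least abundant in the binding table, with a median RPKM of 1.95. Dgcr8 followed for MTR4 with 0.599, the 88.8 percentile, whereas its partner Drosha was near the middle for all 3 proteins (MTR4 0.374, SKIV2L 0.228, XRN1 0.398). Among the GW182 mRNAs, Tnrc6a had the highest XRN1 share (0.592), and Tnrc6c (0.488) and Tnrc6b (0.413) followed. Above the median mRNA were 7 of 10 members for XRN1 and 7 of 10 for MTR4. AVEN binding, given relative to the same sum, was highest for Xpo5 (0.433, the 79.3 percentile) and lowest for Ago2 (0.128, the 9.39 percentile).

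**Figure D5:**
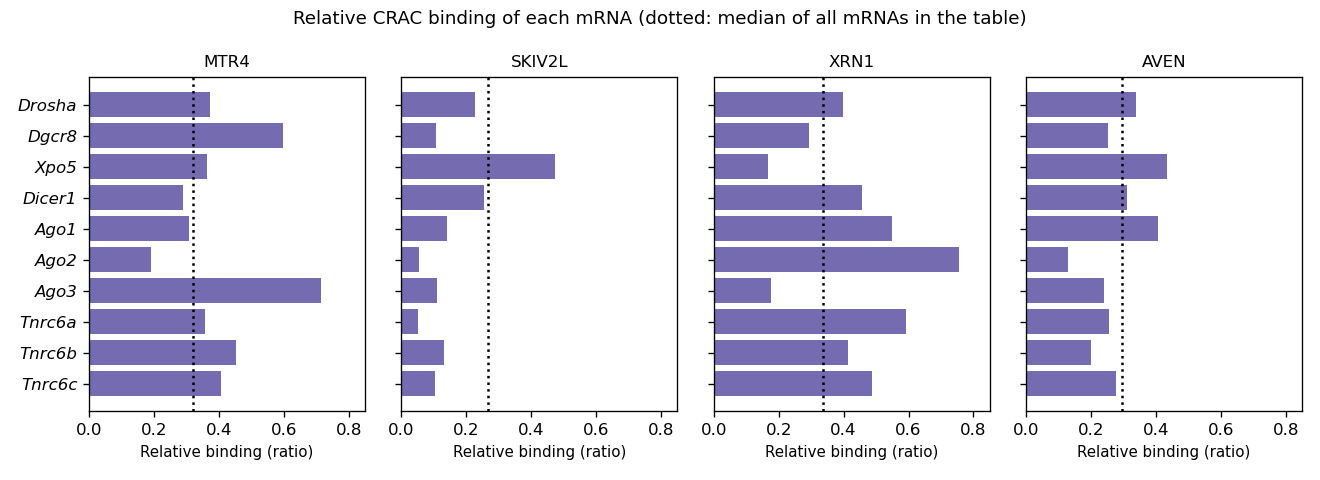
Relative CRAC binding of each mRNA to MTR4, SKIV2L, XRN1 and AVEN as ratios (pooled values, no error); bars are mRNAs and dotted lines the median of the 7240 mRNAs. In the SKIV2L panel Xpo5 (0.472) alone passed the median of 0.267, and Ago2 had the longest XRN1 bar (0.755).

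The fastest mRNA, Tnrc6a, had the least SKIV2L. Over the 10 members, half-life in 5F at day 0 and SKIV2L share had a Spearman's rho of 0.65, and over 7057 mRNAs with both values it was 0.38. SKIV2L share was measured in a tagged line and half-life in 5F. Both values of rho are descriptions across genes that share libraries, and SKIV2L share also went with transcript length over those mRNAs (rho = -0.32). Transcript length did not order the half-lives of the members (rho = -0.08), while over the 7057 mRNAs its rho with half-life was -0.23. The longest transcripts, Tnrc6b (17332 nt), Ago3 (15595 nt) and Ago2 (13800 nt), spanned half-lives of 3.68 to 5.50 h in 5F at day 0.

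Likeness of pattern was measured by Pearson's r over the 16 groups of clone, day and time, after centring each group on its median gene, among 10593 genes. Because groups share time points, high values are common. Tnrc6a was most like D3Ertd254e (r = 0.99) and R3hcc1l (r = 0.99), Dicer1 most like Wwp2 (0.99) and Afg3l1 (0.99), and Drosha most like Traf7 (0.98) and Ube3c (0.98). Xpo5 went with Htt and Sptan1 (0.97 and 0.96), Ago2 with Hif3a and Dnaaf5 (0.95 and 0.94), Ago1 with F2rl1 and Zfp740 (0.94 and 0.93), and Ago3 with Tmem206 and Tfrc (both 0.91). Tnrc6c went with A930004D18Rik and Tsix (both 0.92), Tnrc6b with Ppm1k and Lrrc24 (0.91 and 0.84), and Dgcr8, the least matched, with Tfg and Lrrc58 (0.83 and 0.82). Tsix is antisense to Xist, and reads of the pair cannot be told apart without strand. Between members the highest value was that of Drosha and Xpo5 (0.84) and the lowest that of Drosha and Tnrc6a (-0.96). With Spearman's rho in place of Pearson's r, at least 1 of the 2 named genes changed for all 10 members.

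Of 49 further genes of the pathway, all were tested in every comparison. In 5F labelled day 4 against day 0, 10 were higher and 6 lower, against 12.8% and 11.6% of all genes. Zswim8, which targets Argonaute for degradation when a target RNA pairs extensively, rose by 0.43 ± 0.06 (log2, SE), Khsrp, an RNA-binding protein that aids processing of some precursors, by 0.33 ± 0.05, and Pabpc1, the poly(A)-binding protein, by 0.32 ± 0.04. In 7E, 9 were higher and 15 lower, against 20.7% and 19.4%. Ajuba, a LIM protein that binds Argonautes, rose by 0.43 ± 0.05, Lin28b, which blocks let-7 maturation, fell by 0.43 ± 0.05 on the log2 scale, and Cnot8, a deadenylase, fell by 0.37 ± 0.05. Between clones at day 0, 17 were higher in 7E and 6 lower, against 20.0% and 19.7%. Lin28a, the stem cell paralog of Lin28b, was lower in 7E (-0.66 ± 0.04), with 23154, 22857 and 24127 normalized counts in 5F and 14887, 14797 and 14830 in 7E. Cnot1, the scaffold of the CCR4-NOT deadenylase, was higher (0.61 ± 0.04), and Tsnax, part of the C3PO nuclease, too (0.52 ± 0.04). The interaction was called negative for 6 and positive for 1, against 5.29% and 6.65%. Cnot3 (-0.29 ± 0.09) and Lin28b (-0.29 ± 0.07) were among the negative ones, and Ajuba (0.28 ± 0.06) was the positive one. With the block the interaction was negative for 18 and positive for 4, against 11.7% and 12.4% of all genes. In each of the 4 comparisons of decay without the block, 0 of the 49 passed, although 2 in 5F, 6 in 7E, 3 between clones and 0 for the interaction had an unadjusted p under 0.05. With the block 4 were slower and 8 faster between clones, against 6.34% and 3.54% of all genes. For the interaction 0 were slower and 1 was faster, against 1.05% and 1.56%.

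No product of the pathway was measured. Host transcripts, which carry the hairpins before cleavage, were counted, and their counts do not give microRNA levels. Mir17hg, the host of the miR-17 to miR-92 cluster, had 2304, 2187 and 2069 normalized counts in 5F at day 0 and 1820, 1977 and 1932 in libraries labelled day 4. Mirg, a host of many microRNAs of an imprinted cluster, had 1668, 1604 and 1482, then 1395, 1374 and 1369. Both were called lower on 4OHT in both clones. Mir124a-1hg fell from 270, 309 and 250 to 134, 129 and 113 in 7E, and its interaction was -0.81. Mir22hg went the other way in 7E, from 60, 60 and 41 to 102, 78 and 77 (0.68 ± 0.19, adjusted p = 0.00497). Of 7 host genes listed 4 were tested, as Mir99ahg and Mir155hg were near 0 counts and Mir100hg was not matched. Among these 4 the decay tests called 0.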

How the data were processed

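Per the labels and the study's methods, the authors depleted rRNA, built TruSeq libraries that do not mark strand, mapped reads with STAR to GRCm38 with ERCC spike-ins, and deposited raw counts of uniquely mapped reads per Gencode gene. The binding table holds the authors' relative CRAC binding as ratios from pooled experiments, and deposited RPKM values. Its columns of fold changes, adjusted p-values and half-lives were not used.

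Size factors were median ratios within a time point, times 1 ERCC factor per time point (34 of 92 spike-ins used). Comparisons used edgeR 4.0.16 (quasi-likelihood, filterByExpr, Benjamini-Hochberg, threshold 0.05) in R 4.3.3, with DESeq2 1.42.0 as an alternative, and were tested on simulated data. Mock comparisons used mock libraries, and decay comparisons used time as a slope. Same-numbered libraries of both clones at the same day and time deviated together (correlations of deviations 0.116 to 0.843, over 0.1 in 23 of 23 pairs), a pairing that comes from the data and not from the labels, so comparisons between clones are also given with that block. Between days of a clone 13 of 23 pairs passed 0.1, and no pairing was assumed. Named genes were the 10 members, the 3 pathway genes with the largest absolute change among those called, and the 2 most similar genes per member. The members, lists and tests were chosen with earlier results of these data known. Other alternatives were TMM, own spike-ins, other filters, a replicate block, the block within day and time (chosen after seeing the data), 1 fit over all mock libraries, times as levels, and leaving out replicates or times.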

Additional observations from a re-analysis of the deposited data

Results flagged for a closer look

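For 2 members, Ago1 and Tnrc6c, the response to 4OHT differed between the clones by the test of the difference itself. For Ago1 the interaction was -0.36 (log2): the change was -0.40 in 7E and -0.05 in 5F libraries labelled day 4. For Tnrc6c it was -0.32, with -0.10 in 7E and 0.22 in 5F.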

How the results depend on the processing

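In the decay comparisons 0 members were called under all 13 alternatives other than the paired one. With the replicate block within day and time, chosen after seeing the data, 1 was slower between clones and 0 were called for the interaction, and among mock levels the interaction had 5 lower and 1 higher. Over all genes that block gave 1127 slower and 629 faster between clones, against 5 and 1, 195 and 291 for the decay interaction, against 0 and 0, and 2130 higher and 2021 lower for the mock interaction, against 1145 and 910. Among mock levels, the 5 members higher in 5F became 0 with own spike-ins, 3 with the replicate block and 0 to 4 with 1 replicate left out. The number higher in 7E went from 1 to 0 with TMM, own spike-ins, no filter or the replicate block, and to 0 to 1 with 1 replicate left out, where the 1 was Ago2 and not Xpo5. With own spike-ins, members lower became 10 in 7E, 4 between clones and 10 for the interaction. Over all genes, 14717 of 16333, 6290 of 16299 and 14319 of 17209 were then lower in these comparisons. With 1 replicate left out, those lower were 1 to 2 between clones and 1 to 2 for the interaction. With own spike-ins the log2 change in 7E turned to -1.02 for Drosha, -1.01 for Dgcr8, -0.98 for Xpo5, -1.05 for Dicer1, -0.97 for Ago2 and -1.07 for Ago3, and the interaction to -0.95 for Drosha and -0.87 for Dgcr8, where the scaling itself moved the median gene by -1.11 and -1.03. Of 240 half-lives refitted, 47 moved by more than their standard error, 40 of them without the mock libraries. The cause of the other changes was not tested.

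Within a clone the replicate numbers do not pair libraries by design, and the block there changed calls over all genes in 5F mock libraries from 2095 higher and 1903 lower to 1651 and 1300. With times as levels, 508 genes were higher and 420 lower in 7E, against 71 and 85 with a slope, and 0 members were called. Binding ratios had no replicates.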
